A study of Mus musculus with 15 samples.

Results

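Lmx1a, Lmx1b, Msx1 and Msx2 are 4 genes of the homeobox class, and they were described here in 5 dissected regions of the embryonic mouse brain. They were taken by their symbols from a table of 24264 genes, with no threshold on their values but with earlier results of these data known, and all 4 were in the table. The table came from RNA sequencing of 15 tissue samples of E12.5 embryos, with 3 libraries from each region: the ventral midbrain, the dorsal midbrain, the alar plate, the forebrain and the hindbrain. All embryos were of the C57bl/6 strain and carried GFP, a fluorescent reporter, under control of the promoter of Th, the gene of tyrosine hydroxylase. The reporter is thus shared by all 5 groups, and no group was treated or mutant. The labels describe dissection under a microscope and no sorting by the reporter. Whether the 3 libraries of a region came from separate embryos is not given in the labels, and p-values therefore measure only the spread among these libraries, part of which may be technical. The labels also do not give the part of the brain from which the alar plate was taken.

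Lmx1a and Lmx1b are LIM-homeodomain transcription factors, which bind DNA through the homeodomain and cofactors such as Ldb1 through the LIM domains. In the mouse midbrain both act in floor plate progenitors of dopaminergic neurons, Lmx1a is also required for the roof plate, and Lmx1b is required for the isthmic organizer and for serotonergic neurons of the hindbrain. Msx1 and Msx2 are homeodomain repressors and common targets of bone morphogenetic protein (BMP) signalling in the dorsal neural tube and in mesenchyme, and Msx1 is also known in dopaminergic progenitors downstream of Lmx1a.

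The homeobox, the stretch that codes for the homeodomain, is shown for the Lmx1 genes because reads of near-identical paralogues could be mixed. Each line gives 180 bases of the coding strand, 5′ to 3′, read from GENCODE transcripts of build GRCm38. Capitals mark the bases that differ between Lmx1a and Lmx1b.
Lmx1a: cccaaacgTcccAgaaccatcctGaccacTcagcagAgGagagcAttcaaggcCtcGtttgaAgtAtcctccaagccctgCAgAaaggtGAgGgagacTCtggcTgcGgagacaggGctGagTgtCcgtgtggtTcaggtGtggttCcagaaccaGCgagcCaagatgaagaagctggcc
Lmx1b: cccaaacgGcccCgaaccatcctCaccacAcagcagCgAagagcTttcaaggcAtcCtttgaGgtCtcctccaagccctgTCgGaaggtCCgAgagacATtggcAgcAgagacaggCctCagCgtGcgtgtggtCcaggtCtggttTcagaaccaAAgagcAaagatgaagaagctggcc
The Lmx1 homeoboxes shared 149 of 180 bases (82.8%) and coded for the same 60 of 60 residues. The longest run of identical bases in annotated transcripts was 21 bases between Lmx1a and Lmx1b and 40 bases between Lmx1a and Msx2. How long the reads were, and how reads with several matches were treated, is not given in the sources used here.

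In the GENCODE annotation of GRCm38, Lmx1a lies on the plus strand at chr1:167689237-167848741. The other 3 lie on minus strands, Lmx1b at chr2:33560965-33640511, Msx1 at chr5:37820485-37824583 and Msx2 at chr13:53466884-53473074. All 4 are annotated as protein coding.

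Levels are given as RPKM, a measure of reads that is scaled for gene length and library size, as the authors deposited it. Whole reads were recovered from the RPKM steps for 16598 of 16612 genes with values above 0 in 10 or more libraries (99.9%), and the libraries held between 8416498 and 12721959 such reads. A region was tested against the mean of the other 4, and pairs of regions against each other, with limma on log2(RPKM + 1) over the 13745 genes with at least 1 RPKM in at least 3 libraries. Genes with a Benjamini-Hochberg adjusted p under 0.05 are called. Differences carry their standard error (SE). They are given on the log2(RPKM + 1) scale, on which the change of a weakly expressed gene is understated.

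Of the 15 libraries, 3 lay apart from the other 2 of their region. Over all 24264 genes on the log2(RPKM + 1) scale, alar plate 3 had a Pearson r of 0.967 with both its partners, forebrain 1 had 0.985 and 0.983, and dorsal midbrain 3 had 0.987 and 0.988. The remaining pairs within a region lay between 0.993 and 0.997. The labels were also checked against marker genes. Six3, a gene of the anterior forebrain and eye field, was between 7.62 and 19.9 RPKM in the forebrain and between 11.3 and 23.3 RPKM in the alar plate. Hindbrain 1 held 0.107 RPKM of Hoxa2 and no Hoxb2, against 11.1 and 8.99 RPKM in hindbrain 2. Alar plate 3 alone held the choroid plexus gene Ttr at a high level, 89.3 RPKM, together with 23.2 RPKM of the cortical neuron gene Tbr1. Gbx2, which marks the anterior hindbrain and the thalamus, was at 111 RPKM in forebrain 1, 73.0 RPKM in alar plate 3 and 14.1 RPKM in dorsal midbrain 3, against at most 8.89 RPKM in the other 12 libraries. Where leaving out the 3 that lie apart changed a call or moved a called value by over 1.5 times, the result is given with and without them. Without them many more genes of every kind were called, 33.5% in the ventral midbrain, 64.5% in the dorsal midbrain, 12.3% in the alar plate, 43.7% in the forebrain and 37.8% in the hindbrain, each against the mean of the other 4, so a call gained there is to be read against these shares. Shares given for pairs of regions are from the fit of all libraries, and those without the 3 are not given.

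The ventral midbrain had the highest level of every one of the 4 genes, and each gene ranked the other 4 regions in its own order. Of all genes tested, 7.43% were called higher there than in the mean of the other 4 regions. How many had their highest level there was not counted. Lmx1a reached 1 RPKM in the ventral midbrain and in 2 of 3 forebrain libraries, and had more than 3 reads in all 15 libraries. Lmx1b was also present in the hindbrain. Msx1 was shared by both parts of the midbrain, and Msx2 was a weak transcript of the ventral midbrain. In the test for any difference among the 5 regions, adjusted p was 0.000793 for Lmx1a, 0.00111 for Lmx1b, 1.16e-05 for Msx1 and 2.92e-05 for Msx2, in a table where 33.7% of genes tested were called. Msx2 reached 1 RPKM in the 3 ventral midbrain libraries alone and so passed the filter through them. Without a filter its ventral midbrain difference had an adjusted p of 8.68e-07. In bulk tissue, fewer cells of a type and less RNA per cell cannot be told apart.

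**Figure D1:**
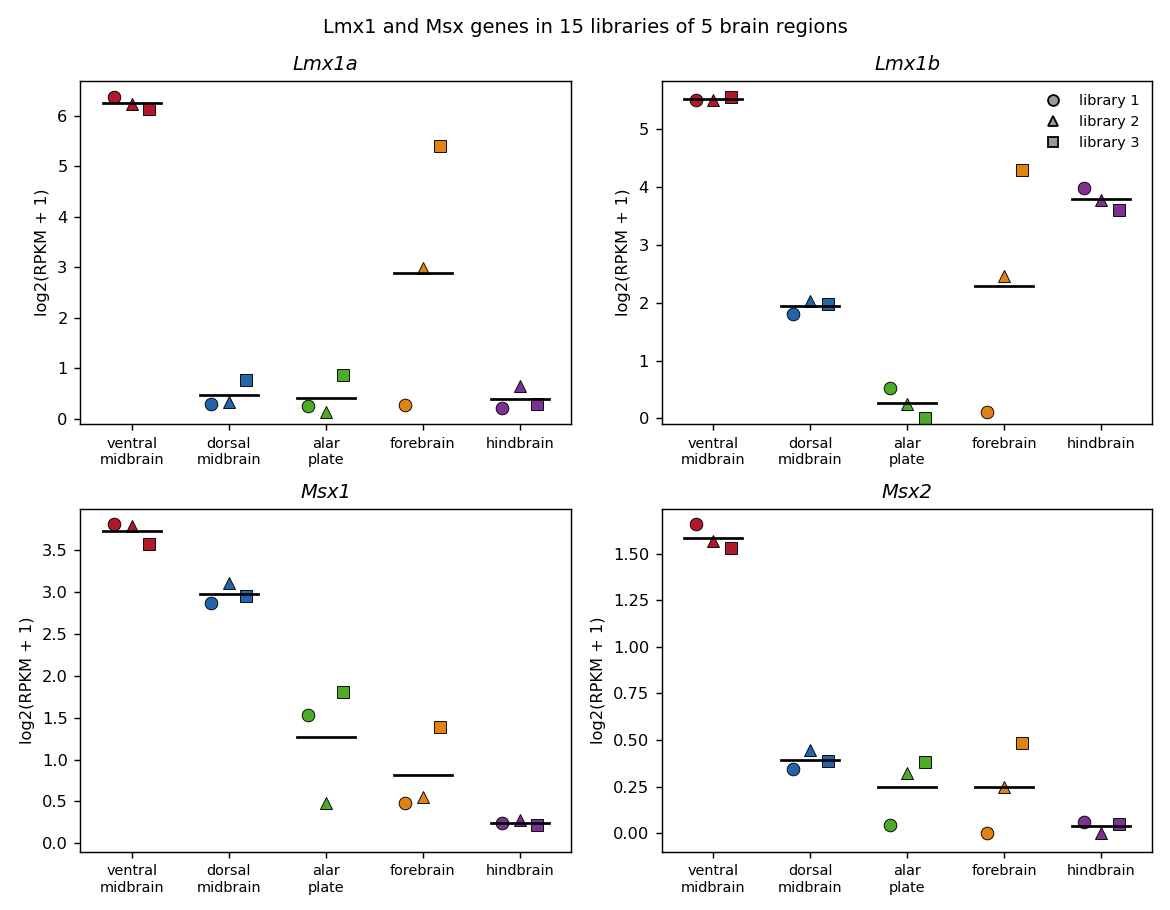
Level of each gene as log2(RPKM + 1) on the vertical axis in the 5 regions on the horizontal axis. Each symbol is 1 library (circle, triangle and square for libraries 1, 2 and 3) and the bar is the mean of 3. The ventral midbrain lies above all other libraries for every gene shown, and the share of all genes tested that do so was not counted. The 3 forebrain libraries are spread widely for Lmx1a and Lmx1b.

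Lmx1a was at 81.8, 74.4 and 68.6 RPKM in the ventral midbrain. It was at 0.226, 0.261 and 0.706 RPKM in the dorsal midbrain, 0.192, 0.0935 and 0.825 RPKM in the alar plate, and 0.166, 0.571 and 0.236 RPKM in the hindbrain. The forebrain libraries held 0.207, 6.93 and 41.3 RPKM. No library of another region reached the ventral midbrain range, and forebrain 3 came nearest to it, while forebrain 1 was as low as the dorsal midbrain, alar plate and hindbrain. In reads, the ventral midbrain libraries held 2537, 2997 and 2539, the forebrain libraries 7, 224 and 1722, and the remaining 9 libraries between 4 and 29.

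The ventral midbrain mean of 74.9 ± 6.6 RPKM (SD, n = 3) compared with 16.1 ± 22 RPKM in the forebrain and 0.398 ± 0.27 RPKM in the dorsal midbrain. Against the mean of the other 4 regions Lmx1a was higher in the ventral midbrain by 5.20 ± 0.67 (SE) on the log2(RPKM + 1) scale (limma adjusted p = 0.000187), where 10.6% of genes tested were called. It was lower in the dorsal midbrain by -2.02 ± 0.67 (adjusted p = 0.0356), where 32.0% were called. That call was lost without any 1 of 9 libraries, namely each of the ventral and dorsal midbrain, forebrain 2 and hindbrain 2 and 3, with an adjusted p between 0.0505 and 0.149. It was also lost with a pseudocount of 0.1 (adjusted p = 0.0705), no filter (adjusted p = 0.0521), voom on recovered reads (adjusted p = 0.354) or the other 12 libraries as 1 group (adjusted p = 0.352), and held at -2.44 without the 3 libraries that lie apart (adjusted p = 0.000422). The alar plate at -2.08 (adjusted p = 0.0892, 4.66% called), the hindbrain at -2.11 (adjusted p = 0.0821, 6.30% called) and the forebrain at 1.01 (adjusted p = 0.419, 2.92% called) did not pass.

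In pairs, Lmx1a was higher in the ventral midbrain than in the dorsal midbrain by 5.78 ± 0.85 (adjusted p = 0.000506), the alar plate by 5.83 ± 0.85 (adjusted p = 0.000506) and the hindbrain by 5.85 ± 0.85 (adjusted p = 0.00129). The share of genes called in these pairs was 23.9%, 14.2% and 3.80%. With voom on recovered reads the call against the hindbrain was lost (adjusted p = 0.0664). The ventral midbrain was higher than the forebrain by 3.36 ± 0.85 (adjusted p = 0.025), where 8.33% were called. Without the 3 libraries that lie apart this difference was 2.05 (adjusted p = 0.0101), and without forebrain 1 alone 2.05 (adjusted p = 0.0279). The call was lost without any 1 of the ventral midbrain libraries (adjusted p 0.0784 to 0.0932) and without forebrain 2 (adjusted p = 0.0703). A pseudocount of 0.1 (adjusted p = 0.0706) or a fit of only these 2 regions (adjusted p = 0.108) also lost it. The dorsal midbrain was lower than the forebrain by -2.42 ± 0.85 (adjusted p = 0.0492), where 27.3% were called, although the libraries overlapped. The call held without alar plate 3 or forebrain 1 and was lost without any 1 of the other 13 libraries (adjusted p 0.0564 to 0.178). It was also lost with a pseudocount of 0.1, no filter, a filter of 5 RPKM, median-ratio scaling, no variance trend, voom or only the 2 regions (adjusted p 0.0503 to 0.219). Leaving out the 3 libraries that lie apart gave -3.88 (adjusted p = 0.000102). The order of means was ventral midbrain, forebrain, dorsal midbrain, alar plate and hindbrain, and the last 3 did not differ beyond their spread, with differences of at most 0.07 and 95% intervals reaching about as far as -1.80 and 1.90.

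The place of the forebrain depended on which of its libraries entered the fit. Without forebrain 1 Lmx1a was higher in the forebrain than in the mean of the other 4 regions by 2.31 (adjusted p = 0.0173), and without forebrain 3 it was at -0.25 (adjusted p = 0.878). Without the 3 libraries that lie apart the forebrain was higher by 2.41 (adjusted p = 0.00136), the alar plate lower by -2.59 (adjusted p = 0.00265) and the hindbrain lower by -2.34 (adjusted p = 0.000685). Without these 3, Lmx1a was higher in the forebrain than in the hindbrain by 3.80 (adjusted p = 0.000831), against 2.49 (adjusted p = 0.205) with all libraries, where 2.70% of genes were called. The alar plate was lower than the forebrain by -4.0 (adjusted p = 0.000969) without them. With all libraries it was lower by -2.47 (adjusted p = 0.172), where 0.0946% of genes were called. The 2.70% and 0.0946% are shares with all libraries, and those without the 3 are not given here.

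Lmx1b was at 44.6, 44.7 and 46.2 RPKM in the ventral midbrain and at 14.8, 12.8 and 11.2 RPKM in the hindbrain. The dorsal midbrain held 2.49, 3.09 and 2.96 RPKM, and the forebrain 0.0771, 4.52 and 18.7 RPKM. In the alar plate it was at 0.445, 0.183 and 0 RPKM, or 8, 3 and 0 reads, and values of 3 reads or fewer count as not detectable at this depth. The ventral midbrain libraries lay above all others and the hindbrain libraries above all but those and forebrain 3. Forebrain 1, with 1 read, was again as low as the alar plate.

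The ventral midbrain mean was 45.2 ± 0.92 RPKM (SD, n = 3), a spread of 0.92 RPKM between libraries that is small beside the 9.7 RPKM of the forebrain. Lmx1b was higher in the ventral midbrain than in the mean of the other 4 regions by 3.46 ± 0.54 (limma adjusted p = 0.000957). It was lower in the alar plate by -3.13 ± 0.54 (adjusted p = 0.00612), a call lost with voom on recovered reads (-5.57, adjusted p = 0.108) or the other 12 libraries as 1 group (adjusted p = 0.265). The hindbrain at 1.29 ± 0.54 (adjusted p = 0.165), the dorsal midbrain at -1.03 ± 0.54 (adjusted p = 0.166) and the forebrain at -0.59 ± 0.54 (adjusted p = 0.572) did not pass. Without the 3 libraries that lie apart the hindbrain was called higher at 0.99 (adjusted p = 0.0177) and the dorsal midbrain lower at -1.36 (adjusted p = 0.00371), while the forebrain changed sign to 0.48 (adjusted p = 0.255).

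Between pairs, Lmx1b was higher in the ventral midbrain than in the alar plate by 5.27 ± 0.69 (adjusted p = 0.000217), the dorsal midbrain by 3.59 ± 0.69 (adjusted p = 0.00316) and the forebrain by 3.24 ± 0.69 (adjusted p = 0.00966). The last of these was lost when only the 2 regions entered the fit (adjusted p = 0.0694), and was 2.14 without the 3 libraries that lie apart (adjusted p = 0.00209). Against the hindbrain it was higher by 1.73 ± 0.69 with no overlap of libraries, but this did not pass (adjusted p = 0.258, 95% interval 0.25 to 3.22). Without the 3 libraries that lie apart the same difference had an adjusted p of 0.00484. The alar plate was lower than the hindbrain by -3.54 ± 0.69 (adjusted p = 0.00706), where 9.97% of genes were called, and with voom on recovered reads the adjusted p was 0.0522. The dorsal midbrain was lower than the hindbrain by -1.85 ± 0.69 (adjusted p = 0.0552, 32.1% called) and higher than the alar plate by 1.68 ± 0.69 (adjusted p = 0.18, 1.67% called), and in neither pair did the libraries overlap. Both passed without the 3 libraries that lie apart, at -1.88 (adjusted p = 0.00134) and 1.53 (adjusted p = 0.0147). So did the dorsal midbrain against the forebrain at -1.47 (adjusted p = 0.0101) and the alar plate against the forebrain at -3.0 (adjusted p = 0.00116), against -0.35 (adjusted p = 0.737) and -2.03 (adjusted p = 0.172) with all libraries. The order of means was ventral midbrain, hindbrain, forebrain, dorsal midbrain and alar plate, with no neighbouring pair of regions called when all libraries were used.

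The balance of the 2 Lmx1 genes was not the same in every region. The ratio of Lmx1a to Lmx1b RPKM was 1.84, 1.66 and 1.49 in the ventral midbrain and 1.54 and 2.20 in forebrain 2 and 3. In the hindbrain it was 0.0112, 0.0446 and 0.0211, and in the dorsal midbrain 0.0909, 0.0844 and 0.239. The alar plate and forebrain 1 had at most 8 reads of Lmx1b, too few for a ratio. Lmx1a was the more abundant where both were high, whereas Lmx1b was the more abundant in every hindbrain and dorsal midbrain library. This ratio was not tested.

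Msx1 was at 13.0, 12.8 and 10.9 RPKM in the ventral midbrain and at 6.30, 7.59 and 6.74 RPKM in the dorsal midbrain. The alar plate held 1.88, 0.396 and 2.50 RPKM, and the forebrain 0.401, 0.472 and 1.62 RPKM. In the hindbrain it was at 0.187, 0.210 and 0.160 RPKM, from 4 or 5 reads a library. The 6 midbrain libraries lay above all 9 others, the ventral above the dorsal, and the 3 hindbrain libraries lay below all 12 others.

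The ventral midbrain mean was 12.3 ± 1.2 RPKM and the dorsal midbrain mean 6.88 ± 0.66 RPKM (SD, n = 3 each). Msx1 was higher in the ventral midbrain than in the mean of the other 4 regions by 2.40 ± 0.23 (limma adjusted p = 1.63e-05) and in the dorsal midbrain by 1.46 ± 0.23 (adjusted p = 0.00138). It was lower in the hindbrain by -1.95 ± 0.23 (adjusted p = 0.000224) and in the forebrain by -1.24 ± 0.23 (adjusted p = 0.0148), though not without forebrain 2 (-1.12, adjusted p = 0.109). The forebrain call was also lost with a pseudocount of 0.1 (adjusted p = 0.0709) or voom on recovered reads (adjusted p = 0.164). With the other 12 libraries as 1 group, the dorsal midbrain, forebrain and hindbrain calls were lost (adjusted p = 0.196, 0.667 and 0.363). The alar plate at -0.67 ± 0.23 did not pass (adjusted p = 0.107), but passed at -0.98 without the 3 libraries that lie apart (adjusted p = 0.024).

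Both parts of the midbrain stood above the alar plate, forebrain and hindbrain. Msx1 was higher in the ventral midbrain than in the hindbrain by 3.48 ± 0.29 (adjusted p = 1.5e-05), the forebrain by 2.91 ± 0.29 (adjusted p = 3.99e-05) and the alar plate by 2.45 ± 0.29 (adjusted p = 0.000113). In the dorsal midbrain it was higher than in the same 3 regions by 2.73 ± 0.29 (adjusted p = 6.55e-05), 2.16 ± 0.29 (adjusted p = 0.00136) and 1.70 ± 0.29 (adjusted p = 0.0153), the last of which was lost without dorsal midbrain 1 or 2 (adjusted p = 0.0637 and 0.0927). That last call was also lost with a pseudocount of 0.1 (adjusted p = 0.0511) or only the 2 regions in the fit (adjusted p = 0.266). Between the ventral and the dorsal midbrain the difference of 0.75 ± 0.29 did not pass with all libraries (adjusted p = 0.0805, 95% interval 0.12 to 1.39) and passed without the 3 that lie apart (0.74, adjusted p = 0.0437). The alar plate exceeded the hindbrain by 1.03 ± 0.29 (adjusted p = 0.0445), a call lost without those 3 (0.76, adjusted p = 0.0673) or without any 1 of 11 libraries (adjusted p 0.0539 to 0.134). It held without dorsal midbrain 3, alar plate 2 or forebrain 1 or 3. No filter, a filter of 5 RPKM, voom or only the 2 regions also lost it (adjusted p 0.0574 to 0.165). By mean, the hindbrain was lowest, after the forebrain and the alar plate. The alar plate exceeded the forebrain by 0.46 (adjusted p = 0.321, 95% interval -0.17 to 1.09) and the forebrain exceeded the hindbrain by 0.57 (adjusted p = 0.617, 95% interval -0.07 to 1.20), neither of which passed.

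Msx2 was at 2.16, 1.96 and 1.89 RPKM in the ventral midbrain, from 44, 52 and 46 reads. The dorsal midbrain held 0.267, 0.360 and 0.306 RPKM from 7, 10 and 8 reads. The alar plate held 0.0325, 0.249 and 0.303 RPKM and the forebrain 0, 0.188 and 0.401 RPKM. In the hindbrain it was at 0.0420, 0 and 0.0358 RPKM, which is 1, 0 and 1 reads, so it was not detectable there at this depth. The ventral midbrain libraries stood clear of all the others, and 5 of 15 libraries were at 3 reads or fewer.

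Msx2 averaged 2.0 ± 0.14 RPKM in the ventral midbrain and 0.311 ± 0.047 RPKM in the dorsal midbrain (SD, n = 3 each). It was higher in the ventral midbrain than in the mean of the other 4 regions by 1.35 ± 0.11 (limma adjusted p = 3.36e-06) and lower in the hindbrain by -0.58 ± 0.11 (adjusted p = 0.00568), a hindbrain call lost with voom on recovered reads (adjusted p = 0.0619). The hindbrain call was also lost with the other 12 libraries as 1 group (adjusted p = 0.508). The alar plate at -0.32 did not pass (adjusted p = 0.102), but passed at -0.41 without the 3 libraries that lie apart (adjusted p = 0.0416). In pairs it was higher in the ventral midbrain than in the dorsal midbrain by 1.19 ± 0.14, the alar plate by 1.34 ± 0.14, the forebrain by 1.34 ± 0.14 and the hindbrain by 1.55 ± 0.14 (adjusted p 1.88e-05 to 6.68e-05). No pair among the other 4 regions passed. The nearest was the dorsal midbrain against the hindbrain at 0.35 ± 0.14 (adjusted p = 0.0638), which had an adjusted p of 0.0398 without the 3 libraries that lie apart.

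**Figure D2:**
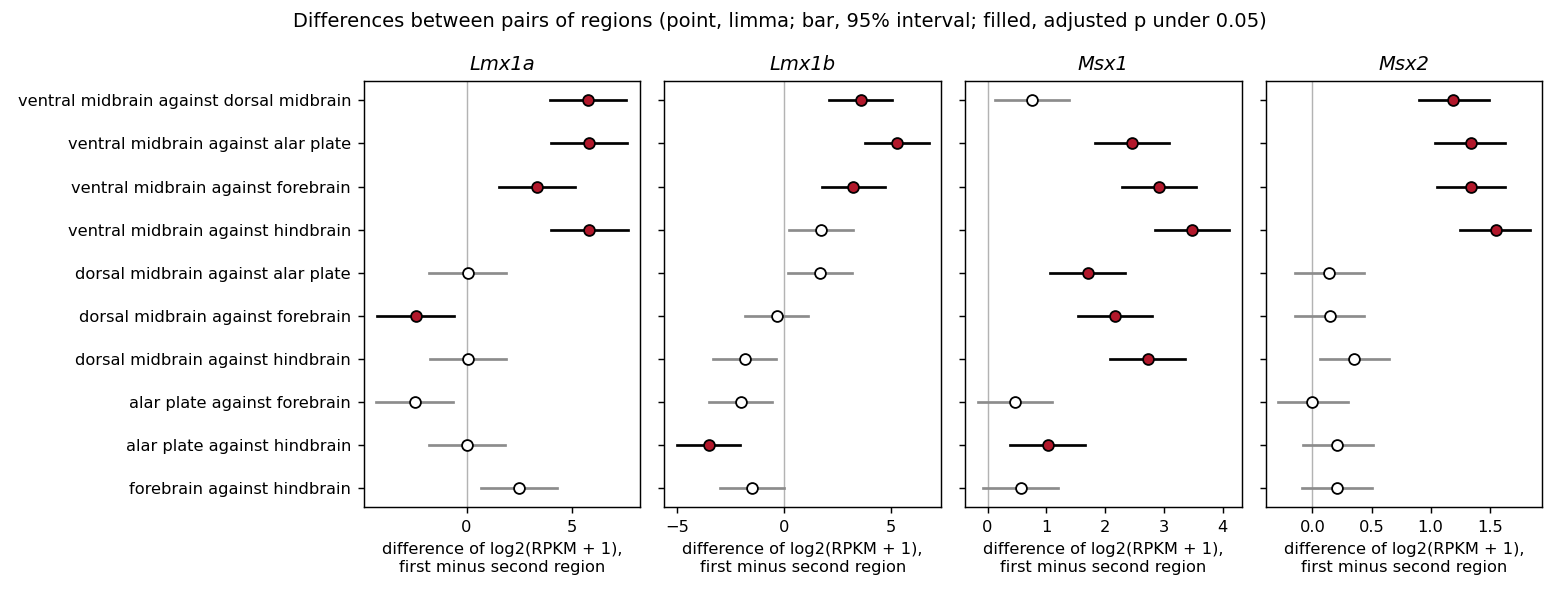
Differences between pairs of regions for each gene on the log2(RPKM + 1) scale (horizontal axis), the region named first minus the region named second (rows). Points are limma estimates from 3 libraries a region, bars are 95% intervals and filled points are called. Lmx1a and Msx2 are called for the ventral midbrain against each other region, Lmx1b for 3 of those 4 pairs, and Msx1 for the ventral and the dorsal midbrain against each of the alar plate, forebrain and hindbrain. Other called pairs are the dorsal midbrain against the forebrain for Lmx1a, and the alar plate against the hindbrain for Lmx1b and Msx1.

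A transcript beside Lmx1b and another annotated within Msx1 varied closely with these genes across the libraries. C130021I20Rik is a long non-coding RNA that starts 95 bases from the start of Lmx1b on the opposite strand of chromosome 2, by the starts in the RefSeq promoter table of GRCm38.p6. By their full RefSeq extents the 2 genes overlap by 16 bases. C130021I20Rik was at 94.6, 99.95 and 92.4 RPKM in the ventral midbrain and at 35.2, 26.8 and 23.8 RPKM in the hindbrain. It was at 0.156, 7.20 and 37.1 RPKM in forebrain 1, 2 and 3, and so ordered those 3 libraries as Lmx1b did. Across the 15 libraries its Pearson r with Lmx1b was 0.997 on the log2(RPKM + 1) scale. These libraries share their regions and dissections, so the value describes them and carries no test.

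The annotated starts of Lmx1b differ, as its full RefSeq extent reaches chr2:33641208 and its GENCODE extent chr2:33640511. Part of the 250 bases before its start in the RefSeq promoter table thus lies within the full RefSeq extent. These bases are shown because they also hold the start of C130021I20Rik. They lie at chr2:33641099-33641348 on the minus strand (RefSeq, GRCm38.p6), printed 5′ to 3′ in the direction of Lmx1b, with the 2 occurrences of CCAAT in capitals.
Lmx1b promoter: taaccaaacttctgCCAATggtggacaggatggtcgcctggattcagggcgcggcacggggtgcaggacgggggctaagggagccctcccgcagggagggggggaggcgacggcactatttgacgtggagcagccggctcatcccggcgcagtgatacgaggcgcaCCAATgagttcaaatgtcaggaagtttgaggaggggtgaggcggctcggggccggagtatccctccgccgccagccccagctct
The letters CCAAT, searched on both strands, occurred in 37.4% of the 32851 promoters of 300 bases in the table. Those of Lmx1b, Msx1 and Msx2 were among them and that of Lmx1a was not. The homeodomain core TAATTA, which is the same on both strands, occurred in 5.29% and among the 4 genes in the promoter of Msx2, while TAATTG, searched on both strands, occurred in 8.0% and in none of the 4. A match is a description of the letters and not a binding site.

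Msx1as is annotated as an antisense RNA whose 2188 bases lie wholly within Msx1 on chromosome 5. It was at 7.90, 7.87 and 6.62 RPKM in the ventral midbrain and at 3.40, 4.28 and 3.82 RPKM in the dorsal midbrain. In the hindbrain it was between 0.125 and 0.149 RPKM. Its recovered reads came to between 60.8% and 100% of those of Msx1, and its Pearson r with Msx1 over 15 libraries was 0.997. Whether counting used strand is not given in the sources used here, and without strand, reads of Msx1 and Msx1as cannot be told apart. The level of Msx1 is uncertain to that extent.

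**Figure D3:**
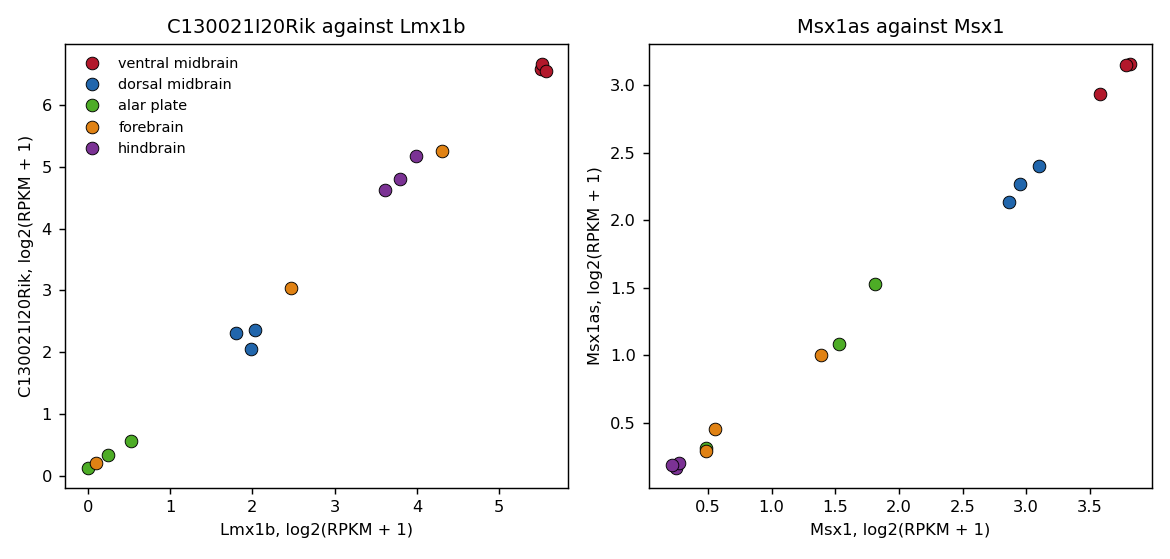
Level of C130021I20Rik (left) and Msx1as (right) on the vertical axis against Lmx1b and Msx1 on the horizontal axis, as log2(RPKM + 1). Each of 15 libraries is 1 point coloured by region. Msx1as lies within Msx1, and without strand their reads cannot be told apart. The points of both panels lie along a line, with the ventral midbrain at the top and the forebrain libraries of the left panel spread along it.

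Other genes with a like pattern were ranked by Pearson r over the 15 libraries, among the genes tested, and the 5 highest were taken for each gene. For Lmx1a they were Gucy2c (0.980), a guanylate cyclase receptor, Avpr1a (0.961), a vasopressin receptor, the transcription factor gene Dmrta2 (0.955), Necab1 (0.952) and 9130206I24Rik (0.950). For Lmx1b, C130021I20Rik was followed by the zinc finger gene Casz1 (0.982), the sodium leak channel gene Nalcn (0.967), the phosphatase gene Dusp3 (0.952) and Npl (0.951). For Msx1, Msx1as, which lies within it and may share its reads, was followed by Dmrta1 (0.937), Matn2 (0.923), Rassf3 (0.922) and Id3 (0.916), a BMP-responsive inhibitor of helix-loop-helix factors. For Msx2 they were Mboat1 (0.971), 5830418P13Rik (0.964), the fatty acid elongase gene Elovl3 (0.963), the folate receptor gene Folr1 (0.959) and the nicotinic receptor gene Chrna6 (0.958). Dmrta2 was at 38.9, 38.3 and 35.4 RPKM in the ventral midbrain and at 0.0668, 9.43 and 16.1 RPKM in forebrain 1, 2 and 3. The ventral midbrain had the highest mean of each of these genes, and the 15 libraries are not independent points. Avpr1a, Dmrta1, Mboat1, 5830418P13Rik, Elovl3 and Chrna6 reached 1 RPKM in the 3 ventral midbrain libraries alone. They passed the filter through those libraries, which fixes where their mean was highest. Among the 4 genes themselves r was highest for Lmx1a with Msx2 (0.874) and Msx1 with Msx2 (0.814), 0.764 for Lmx1a with Lmx1b, and lowest for Lmx1b with Msx1 (0.388).

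The floor plate and dopaminergic genes that share a territory with Lmx1a and Lmx1b were high in the ventral midbrain as well. Of 19 tested genes of this lineage, 14 were called higher and none lower in the ventral midbrain against the other regions, with a median difference of 3.49 against -0.02 for all genes tested, of which 7.43% were called higher and 3.16% lower. Ddc, the decarboxylase of dopamine and serotonin synthesis, was higher by 4.81 ± 0.47 (limma adjusted p = 1.89e-05), and the floor plate factor Foxa2 by 4.71 ± 0.61 (adjusted p = 0.000207). Th was higher by 4.71 ± 0.19 (adjusted p = 1.07e-08) and the midbrain homeobox gene En1 by 4.36 ± 0.53 (adjusted p = 0.000113). In the dorsal midbrain 4 of the 19 were called higher and 11 lower, with Wnt1 and Otx2 among the higher and Shh, Foxa1, Foxa2 and Ddc the lowest, beside 18.2% of all genes tested called higher there and 13.8% lower. With the 3 libraries that lie apart left out, 17 of 19 were called higher and 1 lower in the ventral midbrain, where 33.5% of all genes were then called in either direction.

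Within the forebrain these genes varied along with Lmx1a and Lmx1b. Foxa2 was at 0.137, 16.2 and 20.6 RPKM in forebrain 1, 2 and 3, Foxa1 at 2.35, 12.3 and 32.5 RPKM, and Shh at 3.09, 4.77 and 14.9 RPKM. Of the 19 lineage genes, 14 were lowest in forebrain 1, or 73.7%, against 5394 of the 13745 genes tested (39.2%). Rspo2, a Wnt agonist of the dorsal midline list, was at 0.0592, 1.33 and 14.2 RPKM. That list as a whole did not follow this order. Of its 20 tested genes, 7 were lowest in forebrain 1 (35%), and Zic1 fell across the same libraries, from 92.35 to 19.25 and 8.40 RPKM. The 3 forebrain libraries thus differed in floor plate genes as well as in the 2 Lmx1 genes, and the part of dissection in this was not tested.

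The roof plate and dorsal midline list was led by the dorsal midbrain. Of 20 tested genes, 16 were called higher there and none lower, with a median of 2.08 against 0.05 for all genes, of which 18.2% were called higher and 13.8% lower. Zic1 was higher by 4.0 ± 0.70 (limma adjusted p = 0.00208), Zic4 by 3.54 ± 0.66 (adjusted p = 0.00271) and Pax3 by 3.37 ± 0.35 (adjusted p = 8.38e-05). Gdf7, a BMP ligand of the roof plate, was at 2.08, 3.70 and 1.85 RPKM in the dorsal midbrain and at most 0.228 RPKM in the other 12 libraries. Gdf7, Wnt2b and Wnt3a reached 1 RPKM in the 3 dorsal midbrain libraries alone and so passed the filter through them. Lmx1a, known in the roof plate, was at 0.226 to 0.706 RPKM in the same 3 dorsal midbrain libraries, 9 to 28 reads. In the ventral midbrain the list split, with 6 genes called higher and 4 lower, against 7.43% and 3.16% of all genes tested. Rspo2 was higher by 2.33 ± 0.62 (adjusted p = 0.0287), while Pax3 was lower by -3.12 ± 0.35 (adjusted p = 5.84e-05), Pax7 by -3.09 ± 0.54 (adjusted p = 0.00217) and Zic1 by -2.97 ± 0.70 (adjusted p = 0.0141). Wnt1, which belongs to both lists, was at 6.46, 5.18 and 4.59 RPKM in the ventral midbrain and 6.26, 9.54 and 5.61 RPKM in the dorsal midbrain, against at most 0.325 RPKM in the other 9 libraries. Like Msx1, it was thus shared by both parts of the midbrain. With those that lie apart left out, 12 of 15 tested genes were called higher and 1 lower in the dorsal midbrain, and 7 higher and 7 lower in the ventral midbrain. Of all genes, 64.5% and 33.5% were then called in these 2 regions, in either direction.

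BMP pathway genes, which include the inputs to Msx1 and Msx2, were called in both parts of the midbrain. Of 25 tested, 11 were called higher and 4 lower in the dorsal midbrain, where 32.0% of all genes were called, and 4 higher and 2 lower in the ventral midbrain, where 10.6% were. The medians were 0.42 in the dorsal and 0.02 in the ventral midbrain, against 0.05 and -0.02 for all genes. In the dorsal midbrain the ligand gene Gdf7 was higher by 1.72 ± 0.13 (limma adjusted p = 1.01e-05), Id2 by 1.28 ± 0.14 (adjusted p = 0.000106) and the ligand gene Bmp6 by 0.95 ± 0.19 (adjusted p = 0.00401). Of these, Gdf7 passed the filter through the 3 dorsal midbrain libraries alone. In the ventral midbrain Id3 was higher by 1.49 ± 0.30 (adjusted p = 0.00525), the type I receptor gene Acvr1 by 1.10 ± 0.10 (adjusted p = 1.47e-05) and Bmp6 by 1.08 ± 0.19 (adjusted p = 0.00232), while Id2 was lower by -1.17 ± 0.14 (adjusted p = 8.92e-05). Id3, at 119, 92.4 and 88.5 RPKM in the ventral midbrain and 71.8, 77.2 and 54.2 RPKM in the dorsal midbrain, put the 2 parts in the same order as Msx1. Id2 put them in the reverse order, with 12.4, 10.9 and 9.08 RPKM in the ventral midbrain and 45.8, 41.1 and 46.6 RPKM in the dorsal midbrain. When the 3 libraries that lie apart were left out, 13 of 23 were called higher and 4 lower in the dorsal midbrain, and 7 higher and 5 lower in the ventral midbrain. The shares of all genes called in either direction were then 64.5% and 33.5%.

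Partners of LIM-homeodomain factors were also called in the ventral midbrain. Of 10 tested, 1 was called higher and 3 lower there, with a median of -0.13, against 7.43% higher, 3.16% lower and a median of -0.02 for all genes tested. Ldb1, the main LIM cofactor, was between 80.9 and 110.5 RPKM in all 15 libraries. Lmo1 and Lmo3 are LIM-only proteins that bind the same cofactor. Lmo1 was lower in the ventral midbrain by -2.73 ± 0.23 (limma adjusted p = 4.86e-06), at 5.78, 5.39 and 4.76 RPKM against at least 22.6 RPKM in every other library. Lmo3 was lower by -1.56 ± 0.17 (adjusted p = 5.34e-05) and Ldb2 by -0.87 ± 0.16 (adjusted p = 0.0032), whereas Lmo4 was higher by 0.58 ± 0.16 (adjusted p = 0.034). The counts were 1 higher and 5 lower without the 3 libraries that lie apart, where 33.5% of all genes were called in either direction.

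Serotonergic genes, which mark the hindbrain neurons that need Lmx1b, were called higher more often than lower in 2 regions. Of 12 tested, 7 were called higher and none lower in the hindbrain, with a median of 0.92 against -0.01 for all genes, of which 4.03% were called higher and 2.27% lower. Slc6a4, the serotonin transporter, was higher there by 3.76 ± 0.15 (limma adjusted p = 2.27e-08), Tph2, the neuronal serotonin-synthesis enzyme, by 3.29 ± 0.22 (adjusted p = 1.26e-06) and the transcription factor gene Fev by 2.66 ± 0.14 (adjusted p = 2.33e-07). Htr1a of this list reached 1 RPKM in the 3 hindbrain libraries alone and so passed the filter through them. In the ventral midbrain 8 were called higher and 1 lower, with a median of 1.56, against 7.43% higher, 3.16% lower and a median of -0.02 for all genes. None was called higher and 9 lower in the dorsal midbrain, none higher and 7 lower in the alar plate, and 1 higher and 5 lower in the forebrain. Of all genes tested, 32.0%, 4.66% and 2.92% were called in those regions, in either direction. This list holds Ddc, Slc18a2 and Gch1, which dopaminergic neurons also use. Fev, which they do not, was at 9.27, 15.8 and 12 RPKM in the ventral midbrain and at 14.7, 8.92 and 10.4 RPKM in the hindbrain, against at most 0.0547 RPKM in the other 9 libraries. The 6 libraries of both regions held Lmx1b at 11.2 RPKM or more, but forebrain 3 held 18.7 RPKM of Lmx1b with Fev at 0. In the hindbrain 10 of 12 were called higher without the 3 libraries that lie apart, and 8 higher and 2 lower in the ventral midbrain. Of all genes, 37.8% and 33.5% were then called in these 2 regions, in either direction. How much of the Lmx1b reads of either region came from serotonergic cells was not tested.

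Genes of the isthmus, the border of midbrain and hindbrain where Lmx1b acts, were also high in the ventral midbrain. Of 14 tested, 8 were called higher and none lower there, with a median of 0.93, while 2 were called higher and 1 lower in the hindbrain. Among all genes tested 7.43% were called higher and 3.16% lower in the ventral midbrain, and 4.03% higher and 2.27% lower in the hindbrain. En1, En2 and Wnt1 of this list are also in the dopaminergic lineage list counted above. En2 was higher in the ventral midbrain by 3.49 ± 0.59 (limma adjusted p = 0.00163) and Pax5 by 2.41 ± 0.61 (adjusted p = 0.0221). Fgf8, the signal of the isthmic organizer, was at 2.27, 2.89 and 2.36 RPKM in the ventral midbrain and was listed at 0 in the 3 dorsal midbrain and 3 forebrain libraries. Pax2 was higher in the hindbrain by 2.26 ± 0.23 (adjusted p = 7.58e-05), at 1.98, 7.78 and 4.82 RPKM against at most 0.516 RPKM in the other 12 libraries. It passed the filter through the 3 hindbrain libraries alone. Of the 14, 10 were called higher in the ventral midbrain without the 3 libraries that lie apart, and 4 higher and 2 lower in the hindbrain. The shares of all genes called in either direction were then 33.5% and 37.8%.

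**Figure D4:**
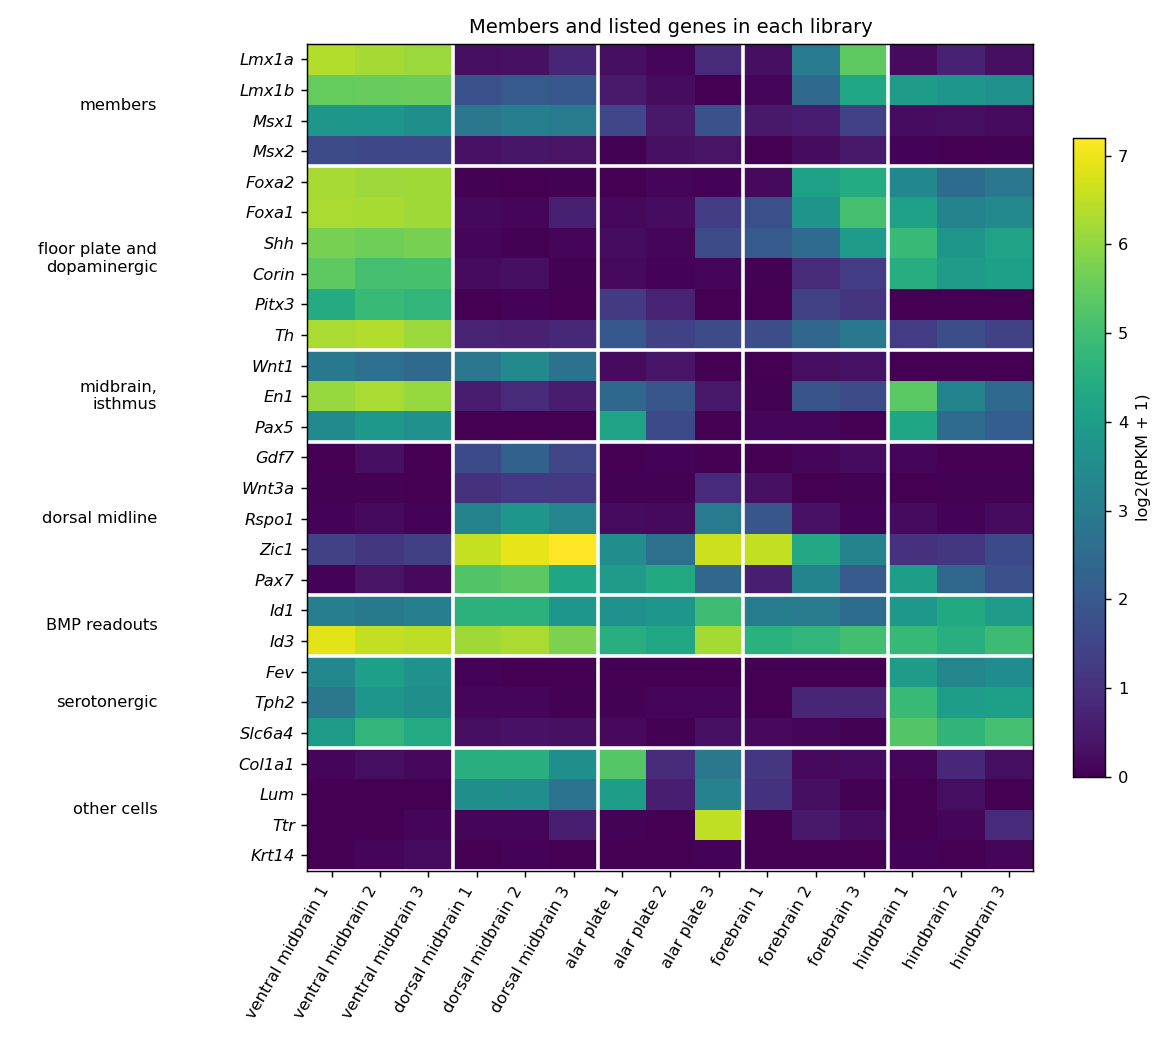
Level as log2(RPKM + 1), by colour, of the 4 genes and of listed genes (rows) in each of 15 libraries (columns). Lmx1a and Lmx1b follow Foxa2 and Foxa1 across forebrain 1, 2 and 3, Fev is present in the ventral midbrain and hindbrain, and Col1a1 and Lum are highest in the dorsal midbrain and in alar plate 1 and 3.

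Mesenchyme, surface ectoderm and choroid plexus, which can express Msx or Lmx1 genes, were followed by their own markers. Of 14 tested meninges and mesenchyme genes, 1 was called higher in the ventral midbrain and 11 in the dorsal midbrain, where 7.43% and 18.2% of all genes tested were called higher. Without the 3 libraries that lie apart, 11 of 13 were called higher in the dorsal midbrain, where 64.5% of all genes were called in either direction. The sum over the 20 listed genes was 25.6 to 29.8 RPKM in the ventral midbrain, 80.9 to 151 RPKM in the dorsal midbrain, 13.1 to 197 RPKM in the alar plate, 18.1 to 25.8 RPKM in the forebrain and 10.6 to 15.8 RPKM in the hindbrain. In the ventral midbrain Lum was at 0 in all 3 libraries and Col1a1 at most 0.213 RPKM, while Msx1 and Msx2 were at their highest. The gene called higher there, Postn, was at 13.2, 11.4 and 8.98 RPKM, against at most 9.97 RPKM in the other 12 libraries. In the alar plate, library 2 was lowest in both the mesenchyme sum and Msx1, and library 1, with the highest sum of all, had 1.88 RPKM of Msx1 against 2.50 RPKM in library 3. The part of mesenchyme in the Msx1 reads of the dorsal midbrain and alar plate was not tested.

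The sum over 10 surface ectoderm genes was 1.34 to 2.90 RPKM in the ventral midbrain, 2.98 to 5.37 RPKM in the dorsal midbrain, 2.92 to 4.59 RPKM in the alar plate, 1.40 to 1.75 RPKM in the forebrain and 0.765 to 2.35 RPKM in the hindbrain. Krt14 was at most 0.158 RPKM in every library. Of the 12 choroid plexus genes, 5 were tested and 3 were called higher in the ventral midbrain, namely Sulf1, Folr1 and Enpp2, against 7.43% of all genes tested. Ttr, which defines the choroid plexus, was at 0, 0 and 0.0703 RPKM in the ventral midbrain. Alar plate 3, with 89.3 RPKM of Ttr, held Lmx1a at 0.825 RPKM, Msx1 at 2.50 RPKM and no reads of Lmx1b.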

How the data were processed

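The authors deposited 1 table of RPKM values (reads per gene scaled for length and for mapped reads) for 24264 genes in 15 libraries, 1 column per library. Bowtie and the build mm9 are named in the submitters' processing notes. The annotation and the counting, strand included, are not named in the sources used here. RNA was extracted with Trizol, and 200 ng of it went into each library, per the labels' protocols. No mm9 genome was used, so positions and sequences are those of GRCm38.

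Reads were recovered by finding, for each gene, the RPKM step of 1 read, taking values within 0.02 reads of a whole number as whole, or within 0.15 at high counts. RPKM sums were 374280 to 390992 per library, and 489420 in alar plate 3. A value of 3 reads or fewer was treated as not detectable, which covers counting error only.

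limma (version 3.58.1, R 4.3.3) with a variance trend was fitted to log2(RPKM + 1) of all 5 regions, with no covariate, on 13745 genes. Tests were two-sided, with Benjamini-Hochberg adjustment within a comparison, and intervals are 95% and unadjusted. The 4 genes passed the filter of 1 RPKM in 3 libraries. The fit was tested on simulated data. A test of recovered reads with another count model had been planned. It was replaced by limma-voom on those reads, chosen after seeing the data, because the deposited unit is RPKM.

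The members, gene lists and tests were chosen with earlier results of these data known. Named genes are the members, the 5 genes most like each by Pearson r, and up to 4 called genes of a list with the largest differences, plus defining markers. Genes named beyond these, such as Otx2, Pax2, Hoxa2 or Shh, were chosen after their values were seen. Some listed genes and sequences are not reported here.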

Additional observations from a re-analysis of the deposited data

How the results depend on the processing

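The 4 genes were called for a difference among regions under each alternative that kept all 4 past the filter, and the ventral midbrain call against the other regions held for Lmx1a, Lmx1b, Msx1 and Msx2 under each alternative that kept the gene past the filter. With 5 RPKM as the filter, or without any 1 ventral midbrain library, Msx2 did not pass and has no value. The planned edgeR test was not run.

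Region calls, out of 5, were 2 for Lmx1a, 2 for Lmx1b, 4 for Msx1 and 2 for Msx2. For Lmx1a they became 1 with a pseudocount of 0.1, no filter, voom or the other 12 libraries as 1 group, and 5 without alar plate 3, dorsal midbrain 3 and forebrain 1. For Lmx1b they became 1 with voom or the other 12 libraries as 1 group, and 4 without those 3 libraries. For Msx1 they became 1 with the other 12 as 1 group, and for Msx2 1 with that or voom. Pair calls, out of 10, were 5, 4, 7 and 4. For Lmx1a they became 3 with a pseudocount of 0.1, voom or only the 2 regions compared, and for Lmx1b 9 without the 3 libraries. Leaving out 1 library in turn gave region calls of 1 to 5, 2 to 4, 3 to 4 and 2 to 3, pair calls of 3 to 7, 4 to 9, 5 to 8 and 4 to 5, and 4 to 4 genes in the overall test. Without forebrain 1 alone, Lmx1a had 5 region calls and Lmx1b 9 pair calls. The cause was not tested.

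None of the differences that changed sign was called when all libraries were used. Leaving out 1 library moved Lmx1a in the forebrain against the others between -0.25 and 2.31, in the dorsal midbrain against the alar plate between -0.10 and 0.28, in the dorsal midbrain against the hindbrain between -0.08 and 0.20, and in the alar plate against the hindbrain between -0.20 and 0.17. It moved Lmx1b in the forebrain against the others between -1.59 and 0.50 and in the dorsal midbrain against the forebrain between -1.44 and 0.65, and Msx2 in the alar plate against the forebrain between -0.12 and 0.12. Without the 3 libraries Lmx1a was at -0.08 in the dorsal midbrain and -0.20 in the alar plate against the hindbrain, Lmx1b at 0.48 in the forebrain against the others, and Msx2 at -0.18 in the alar plate against the forebrain. With a pseudocount of 0.1 and with voom, Lmx1a in the alar plate against the hindbrain was at -0.07 and -0.25, Lmx1b in the dorsal midbrain against the forebrain at 0.24 and 0.27, and Msx2 in the dorsal midbrain against the others at 0.19 and 0.70.

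With the replicate block, the region calls were 2, 2, 4 and 2 and the pair calls 5, 4, 7 and 4, and the block changed no call of the 4 genes. Of 30 same-numbered pairs of libraries, 18 had a correlation of deviations over 0.1 (range -0.175 to 0.405), so not every pair passed and the samples were not treated as paired. As a hint of pairing from the data and not the design, 12 of 15 libraries correlated best with their own number. With Spearman rho, 0, 2, 1 and 0 of the 5 named genes most like Lmx1a, Lmx1b, Msx1 and Msx2 remained among the 5 highest. Without the 3 libraries 3, 2, 2 and 2 remained. Depth limits Msx2, with at most 52 reads a library.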

Other observations

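The forebrain libraries also differed in other transcription factor genes, which were chosen after their values were seen. Barhl1, which is known in the mammillary and subthalamic area, was at 0.483, 19.0 and 35.2 RPKM in forebrain 1, 2 and 3, in the same order as Lmx1a and Lmx1b. It was also at 17.9 to 19.6 RPKM in the dorsal midbrain and 17.5 to 43.8 RPKM in the alar plate, where Lmx1a was under 1 RPKM. Nkx2-1, a gene of the hypothalamus, was at 0.0343, 0.538 and 13.3 RPKM there, against at most 2.02 RPKM in the other 12 libraries. In the ventral midbrain Nkx2-1 was at most 0.0748 RPKM, although Lmx1a was higher there than in forebrain 3.

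Wnt5a, a ligand gene of the midbrain floor plate, was at 41.6, 38.4 and 37.1 RPKM in the ventral midbrain and at most 13.7 RPKM in the other 12 libraries, where hindbrain 1 was highest.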
